A study of Mus musculus with 43 samples.

Results

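The enteroendocrine genes described here were *Chga*, *Chgb*, *Neurod1*, *Neurog3*, *Pyy*, *Gcg*, *Tph1*, *Insl5*, *Sct* and *Cck*, 10 genes chosen by symbol from the 52636 genes of the organoid table and followed through all of its 24 libraries. Colonoids came from tamoxifen-treated VilCreERT2 mice with wild-type Apc (Apc WT; lines M41, M40 and M1). Tumoroids came from tamoxifen-treated VilCreERT2 mice with floxed Apc, lost in the epithelium where villin drives Cre (lines F11, M3 and M14). Each line was grown from 1 adult mouse, so a group of 3 lines is a group of 3 mice, and no line carries both genotypes. Cultures of every line received DMSO as vehicle (Ve), the multi-kinase inhibitor regorafenib at 4 µM (R4) or at 8 µM (R8), or 1 µM of the thymidylate synthase inhibitor 5-fluorouracil (5-FU) and were collected on day 6, which gave 8 groups of 3 libraries. All mice were 2 months old and heterozygous for VilCreERT2, F11 came from a female and the other lines from males, and all cultures grew in medium with EGF, Noggin, R-spondin and Wnt. The 19 fibroblast libraries of the study enter only the closing observations.

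Enteroendocrine cells are the rare hormone-secreting cells of the gut epithelium. They arise in the crypt from secretory progenitors that briefly express *Neurog3*, the transcription factor that commits a cell to the endocrine fate, and then *Neurod1*, which acts downstream of it. Mature cells store peptides or serotonin in granules built around chromogranins. In the colon the main kinds are enterochromaffin cells, which make serotonin with the enzyme encoded by *Tph1*, and L cells, which make glucagon-like peptides from *Gcg*, peptide YY from *Pyy* and, in the distal colon, insulin-like peptide 5 from *Insl5*. *Sct* and *Cck* encode secretin and cholecystokinin, hormones known mostly from the small intestine.

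The bases just before the RefSeq start are shown for 4 of the genes, the fate gene *Neurog3*, the granule gene *Chga*, the serotonin enzyme gene *Tph1* and the hormone gene *Gcg*, because these carry the comparisons below and were low together in regorafenib-treated colonoids. Each sequence holds the 250 bases before the start on the gene's strand (RefSeq, GRCm38.p6), and the capitals mark 3 motifs searched on both strands, CAGATG and CAGCTG, which are letters that basic helix-loop-helix factors such as NEUROD1 can bind, and TGACG, the core of the cAMP response element. The motifs do not overlap each other in these sequences.
Neurog3, chr10:62132840-62133089, plus strand: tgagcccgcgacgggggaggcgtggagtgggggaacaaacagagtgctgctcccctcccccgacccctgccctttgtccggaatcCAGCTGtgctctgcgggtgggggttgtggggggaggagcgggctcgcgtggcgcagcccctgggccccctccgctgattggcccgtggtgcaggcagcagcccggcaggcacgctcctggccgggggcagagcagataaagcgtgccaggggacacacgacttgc
Chga, chr12:102554691-102554940, plus strand: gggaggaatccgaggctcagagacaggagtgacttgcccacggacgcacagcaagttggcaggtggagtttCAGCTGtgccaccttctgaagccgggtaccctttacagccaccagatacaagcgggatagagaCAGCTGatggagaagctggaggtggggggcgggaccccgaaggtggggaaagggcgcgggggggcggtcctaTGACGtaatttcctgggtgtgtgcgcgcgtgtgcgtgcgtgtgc
Tph1, chr7:46672538-46672787, minus strand: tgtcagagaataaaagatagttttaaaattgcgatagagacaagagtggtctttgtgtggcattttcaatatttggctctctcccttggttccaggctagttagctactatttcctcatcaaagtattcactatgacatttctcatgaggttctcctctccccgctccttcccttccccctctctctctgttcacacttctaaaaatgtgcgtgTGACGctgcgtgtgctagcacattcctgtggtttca
Gcg, chr2:62483654-62483903, minus strand: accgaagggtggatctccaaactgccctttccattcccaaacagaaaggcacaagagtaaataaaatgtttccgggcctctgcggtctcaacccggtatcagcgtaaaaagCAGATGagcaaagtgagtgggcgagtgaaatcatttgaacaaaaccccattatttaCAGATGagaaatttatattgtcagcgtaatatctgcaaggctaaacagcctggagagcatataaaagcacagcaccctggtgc
*Chga* held CAGCTG at 179 and 116 bases and TGACG at 44 bases before the start, *Tph1* held TGACG at 36 bases, *Neurog3* held CAGCTG at 165 bases, and *Gcg* held CAGATG at 139 and 83 bases. Among the 10 genes, 4 held CAGATG or its reverse complement, 3 held CAGCTG and 4 held TGACG in the window, against 14.4%, 13% and 17.8% of all 32851 windows. These matches describe letters only.

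Values are CP20M, read counts scaled to 20000000 per library and rounded up, without division by gene length, so that 20 CP20M is 1 CPM. The depth recovered from the tables was 512592 to 22370081 reads, with a median of 15697926. One library stood apart, line M41 at R4, with 512592 reads, so that 1 read there is 39.0 CP20M and 3 reads are 117.0 CP20M, while in the other 23 libraries 1 read is 0.894 to 4.57 CP20M. A value of 0 therefore allowed up to 117.0 CP20M in that library and 2.68 to 13.7 CP20M elsewhere, counting error only. The 7 epithelial markers summed to 65993 to 173014 CP20M, and the 3 glial markers summed to 36 CP20M at most. Counts over *Apc* were not lower in tumoroids (3813 to 6032 CP20M) than in colonoids (1542 to 4944), but gene-level counts cannot show whether floxed exons were lost. The Wnt targets *Axin2* and *Znrf3* did not overlap between genotypes, with *Axin2* at 430 to 2521 CP20M in colonoids and 4215 to 10756 in tumoroids. In bulk cultures, fewer enteroendocrine cells and less of a transcript per cell cannot be told apart.

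All 10 genes were scarce. Of the 240 values, 99 were 0 and 52 reached 20 CP20M, and of the 120 tumoroid values 6 did. The share of zeros was lowest in vehicle-treated colonoids, with 2 of 30 values, and highest in tumoroids at R8, with 22 of 30. Divided by the exon bases of each gene, mean levels in vehicle-treated colonoids were 422 CP20M per kb for *Pyy*, 123 for *Chgb*, 79.1 for *Chga*, 78.9 for *Neurog3*, 76.4 for *Insl5*, 22.5 for *Tph1*, 19.9 for *Gcg*, 17.3 for *Neurod1*, 11.9 for *Sct* and 8.94 for *Cck*. Neighbours in this order were within the spread between the 3 lines. With at least 20 CP20M in at least 3 libraries, 8 genes entered the test across 16507 genes and *Sct* and *Cck* did not. *Chgb*, *Neurod1*, *Gcg*, *Tph1* and *Insl5* reached 20 CP20M in colonoid libraries only and so passed through the genotype in which they were high.

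**Figure D1:**
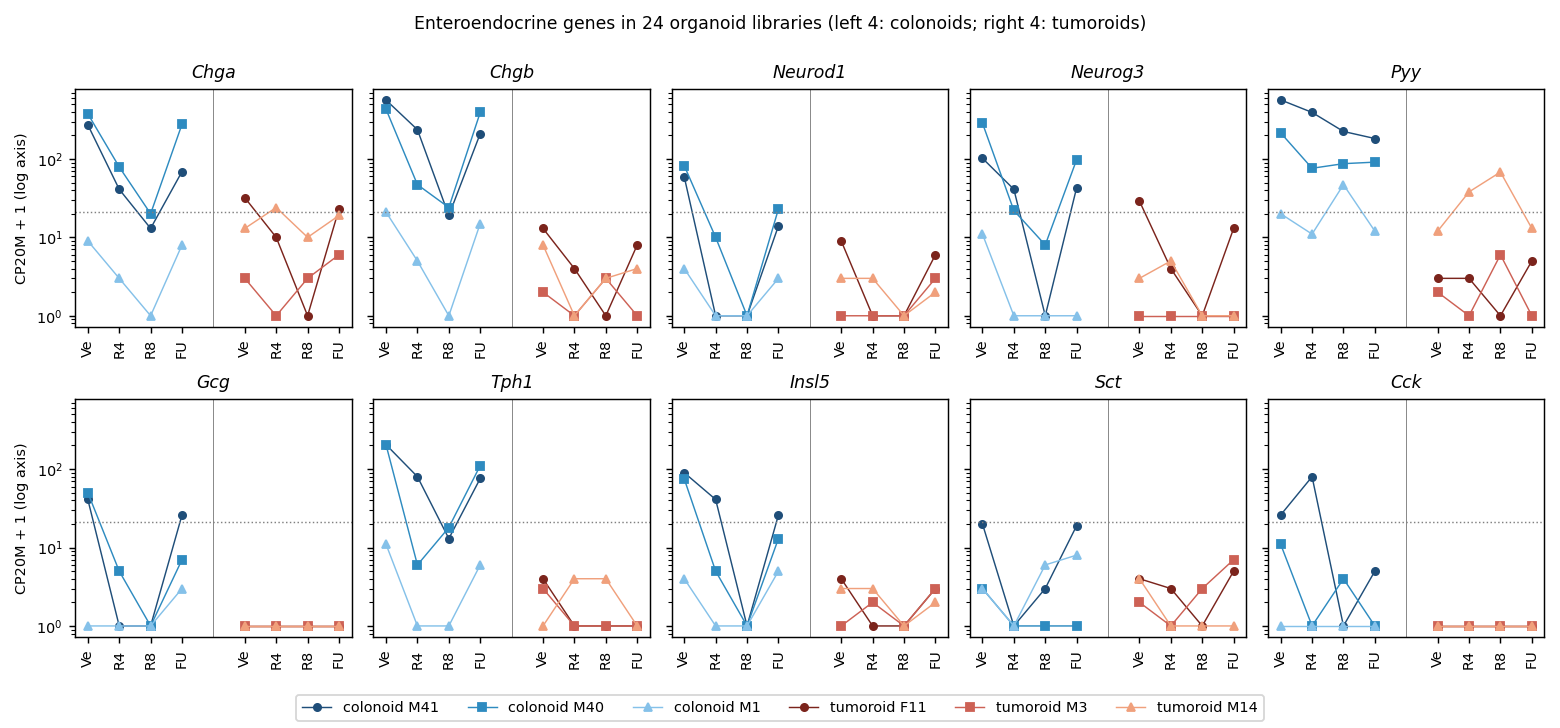
CP20M + 1 on a log axis for each of the 10 genes, in Ve, R4, R8 and 5-FU (FU), with colonoids left and tumoroids right of the grey line. Each symbol is 1 library, lines join the libraries of 1 organoid line, and the dotted line marks 20 CP20M. Colonoid lines M41 and M40 started highest in most panels, and line M1 lay with the tumoroids.

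Line M1 stood apart among the colonoids. With vehicle, the 10 genes summed to 1934 CP20M in M41 and 1722 in M40, but to 75 in M1, against 90, 7 and 39 in the tumoroid lines F11, M3 and M14. *Chga* was 46.9 times higher in M40 than in M1, and *Pyy* 29.7 times higher in M41 than in M1. Goblet cell markers divided the lines in the same way, with 13390, 19634 and 1616 CP20M summed over 8 genes in M41, M40 and M1, whereas 8 markers of absorptive colonocytes summed to 17006, 11391 and 13231. The spread between colonoid lines thus exceeded 20-fold for 7 genes, which sets how precisely any group mean is known.

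The first question was whether the genotypes differed without drug. *Neurog3* read 101, 285 and 10 CP20M in vehicle-treated M41, M40 and M1 and 28, 0 and 2 CP20M in F11, M3 and M14. M41 and M40 lay above every tumoroid line, while M1 lay below F11, so the groups overlapped. *Neurod1* read 58, 81 and 3 CP20M in colonoids and 8, 0 and 2 CP20M in tumoroids, with the same overlap. *Chga* read 271, 375 and 8 CP20M against 31, 2 and 12.

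*Chgb*, *Pyy* and *Tph1* were the 3 genes whose groups did not overlap, against 9.31% of all genes tested whose 3 tumoroid values all lay below the 3 colonoid values. *Chgb* read 562, 429 and 20 CP20M in colonoids against 12, 1 and 7 CP20M in tumoroids. *Pyy* read 565, 214 and 19 CP20M against 2, 1 and 11. *Tph1* read 204, 203 and 10 CP20M against 3, 2 and 0. In all 3 genes the colonoid line nearest to the tumoroids was again M1.

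The L cell hormones *Gcg* and *Insl5* had low counts even in colonoids, although *Insl5* per kb of exon (76.4 CP20M) was near *Chga* (79.1). *Gcg* read 40, 49 and 0 CP20M in colonoids and was listed at 0 in all 12 tumoroid libraries, whatever the treatment. *Insl5* read 89, 74 and 3 CP20M in colonoids and 3, 0 and 2 in tumoroids. *Sct* read 19, 2 and 2 CP20M in colonoids and 3, 1 and 3 in tumoroids, which is 6 reads at most. *Cck* read 25, 10 and 0 CP20M in colonoids and was listed at 0 in all 12 tumoroid libraries.

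The fitted log2 difference between tumoroids and colonoids in vehicle was below 0 for all 8 genes tested, from -3.06 ± 0.89 (SE, n = 3 lines per group) for *Chgb* to -1.12 ± 0.32 for *Gcg*, and none was called at an adjusted p under 0.05 (limma on log2(CP20M + 20), Benjamini-Hochberg over all genes). The adjusted p was 0.0729 for *Tph1*, 0.0772 for *Neurod1*, 0.0782 for both *Gcg* and *Insl5*, 0.087 for *Chgb*, 0.131 for *Pyy*, 0.146 for *Neurog3* and 0.208 for *Chga*, while all 8 had an unadjusted p under 0.05. Of all genes tested, 0.8% were called lower in tumoroids. The edgeR quasi-likelihood test on recovered reads called *Chgb*, *Tph1* and *Insl5* lower (adjusted p = 0.0359, 0.0354 and 0.038), where 1.41% of all genes were called lower. Without the shallow M41 library, 5 of 8 were called (2.27% of all genes), and without line M1 all 8 were called, with adjusted p of 1.93e-05 (*Chgb*) to 0.00524 (*Pyy*), where 1.57% of all genes were called lower. The count of calls therefore depended on the lines kept and on the spread pooled over all groups. That spread takes the libraries of 1 line under different treatments as separate replicates, although libraries of a line deviated together. These p therefore do not measure the spread between mice alone, and without M1 only M41 and M40 stand for the colonoids. The shallow library, at R4, is not in this comparison and acts only through that pooled spread.

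The main question was what regorafenib did to these transcripts in colonoids. *Neurog3* went from 101 CP20M in vehicle to 40 at R4 and 0 at R8 in M41, from 285 to 21 and 7 in M40, and from 10 to 0 and 0 in M1. *Neurod1* went from 58 to 0 and 0 in M41, from 81 to 9 and 0 in M40, and from 3 to 0 and 0 in M1. All 3 lines read lower at both doses for both transcription factors, and no R8 library of *Neurod1* held a read. For *Neurod1*, counting error alone allowed no change in M41 at R4 (upper 95% limit of 275% of vehicle). It also did in M1 (622% at R4 and above that at R8), which held 2 reads in vehicle. For *Neurog3*, it allowed no change in M41 at R4 (233%) and in M1 at R8 (223%).

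Among the granule genes, *Chga* went from 271 CP20M in vehicle to 40 at R4 and 12 at R8 in M41, from 375 to 78 and 19 in M40, and from 8 to 2 and 0 in M1. *Chgb*, which encodes secretogranin 1, went from 562 to 235 and 18 in M41, from 429 to 46 and 23 in M40, and from 20 to 4 and 0 in M1. *Tph1* went from 204 to 79 and 12 in M41, from 203 to 5 and 17 in M40, and from 10 to 0 and 0 in M1. Every line read lower at both doses in all 3 genes. Counting error alone allowed no change for *Chga* in M1 (upper 95% limits of 209% of vehicle at R4 and 351% at R8). It also did for *Tph1* in M1 at R8 (223%) and in M41 at R4 (144%). In M40, R8 reads were 4.92% of vehicle for *Chga* (9 against 316 reads, 95% interval 2.23% to 9.45%, exact Clopper-Pearson, counting error only), 5.26% for *Chgb* (2.6% to 9.52%) and 8.08% for *Tph1* (3.43% to 16.3%).

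The L cell hormones divided. *Gcg* went from 40 CP20M in vehicle to 0 and 0 in M41 and from 49 to 4 and 0 in M40, and was 0 throughout in M1. *Insl5* went from 89 to 40 and 0 in M41, from 74 to 4 and 0 in M40, and from 3 to 0 and 0 in M1. *Pyy* went from 565 to 391 and 223 in M41, from 214 to 75 and 86 in M40, and from 19 to 10 and 46 in M1. *Pyy* thus kept reads in every regorafenib-treated colonoid library, unlike *Gcg* and *Insl5*, which had no read at R8 in any line. In M1, 10 reads of *Pyy* at R8 against 13 in vehicle gave 247% of vehicle, with an interval of 97.1% to 611% that includes no change. In M41, R8 reads of *Pyy* were 39.5% of vehicle (31% to 50.2%), and those of *Chgb* 3.16% (1.42% to 6.13%).

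*Sct* read 0 in all 3 colonoid lines at R4 and 2, 0 and 5 CP20M at R8. *Cck* read 79 CP20M at R4 in M41, which is 2 reads of the shallow library, and 3 CP20M at most in the other regorafenib-treated colonoids. Both lay too near a single read for a direction.

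Averaged over both doses, regorafenib against vehicle in colonoids gave fitted log2 fold changes below 0 for all 8 genes tested. *Neurod1* fell by 1.41 ± 0.31 (SE, n = 3 lines, adjusted p = 0.00533), *Gcg* fell by 1.08 ± 0.28 (adjusted p = 0.0129), *Insl5* fell by 1.32 ± 0.37 (adjusted p = 0.0223), *Neurog3* fell by 1.86 ± 0.56 (adjusted p = 0.0304) and *Tph1* fell by 1.82 ± 0.57 (adjusted p = 0.0394). *Chgb* at -2.17 ± 0.77 (adjusted p = 0.0679), *Chga* at -1.94 ± 0.71 (adjusted p = 0.0751) and *Pyy* at -0.64 ± 0.81 (adjusted p = 0.642) were not called. The count of 5 of 8 stood where 7.64% of all genes were called lower, and it is a count over genes that had to be high somewhere to be tested. *Neurod1* and *Gcg* reached 20 CP20M only in vehicle-treated and 5-FU-treated colonoids. The only regorafenib library of *Insl5* that did held 1 read of the shallow library (40 CP20M). These genes thus entered the test through groups in which they were high, so their calls are no support beyond the values. Because 20 CP20M were added before the logarithm, these changes understate those of the low genes. Each SE pools the spread of all 8 groups, tumoroids included. *Gcg* was 0 in every tumoroid library, so its SE and p do not measure the spread of the colonoid lines alone.

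At R8 all 3 colonoid values lay below all 3 vehicle values for 3 of the 8 genes, *Neurog3*, *Neurod1* and *Insl5*, as for 21.6% of all genes tested. At R4 this held for none of the 8, against 15.7% of all genes tested. The count of calls depended on the lines. With the line as a block, which compares each line with itself, 7 of 8 were called, *Pyy* being the exception (adjusted p = 0.172), against 10.7% of all genes. In edgeR on recovered reads, *Chgb* joined the 5 (adjusted p = 0.0259) and *Chga* did not (adjusted p = 0.0593), against 7.52% of all genes. Without line M1, 7 were called, without the shallow M41 library 6, without line F11 4, without line M14 2 and without line M3 2. F11, M14 and M3 are tumoroid lines outside this comparison, so leaving them out acts only through the pooled spread. Without line M41 *Insl5* alone was called, and without line M40 none was, with 4 genes at an unadjusted p under 0.05. Shares of all genes called are not given for the fits that leave out a line or library.

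**Figure D2:**
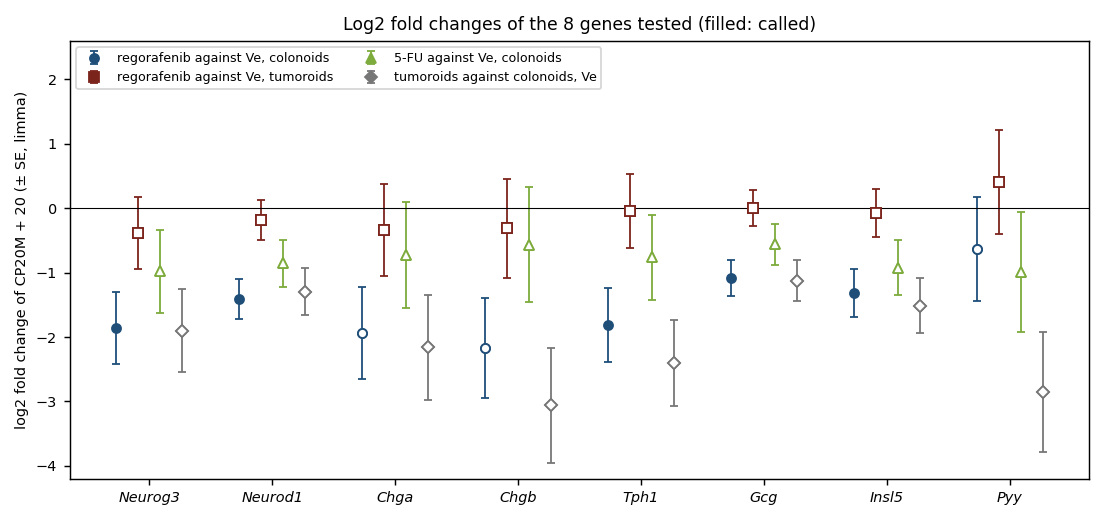
Fitted log2 fold changes of CP20M + 20 with their SE (limma, 3 lines per group, spread pooled over all 8 groups) for the 8 genes tested, in 4 comparisons, filled where the gene was called. The filled symbols are *Neurog3*, *Neurod1*, *Tph1*, *Gcg* and *Insl5* for regorafenib in colonoids, and the tumoroid values of regorafenib lie between -0.39 and 0.40.

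In tumoroids most values rested on a few reads. *Neurog3* went from 28 CP20M in vehicle to 3 at R4 and 0 at R8 in F11, was 0 throughout in M3, and read 2, 4 and 0 in M14. *Chga* read 31, 9 and 0 in F11, 2, 0 and 2 in M3, and 12, 23 and 9 in M14. *Pyy* read 2, 2 and 0 in F11, 1, 0 and 5 in M3, and 11, 37 and 67 in M14. The lines moved in different directions: the 10 genes summed to 90, 19 and 0 CP20M in F11, 7, 1 and 11 in M3, and 39, 71 and 81 in M14, and in M14 *Pyy* made up most of the sum at R8.

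The remaining tumoroid values were lower still. *Chgb* was at most 12 CP20M (F11, vehicle), *Neurod1* at most 8 (F11, vehicle), *Sct* at most 6 (M3, 5-FU), and *Tph1* and *Insl5* at most 3. Fitted changes with regorafenib in tumoroids ran from -0.39 ± 0.56 for *Neurog3* to 0.40 ± 0.81 for *Pyy*, and none of the 8 was called, against 6.4% of all genes called in either direction. No unadjusted p was under 0.05, and edgeR called none. With the line as a block, limma called none and edgeR called *Chgb* lower (adjusted p = 0.0301), with 4 genes at an unadjusted p under 0.05 and 7.11% of all genes called lower. In F11 alone, *Chga* went from 23 reads in vehicle to 0 at R8 (at most 34.9% of vehicle) and *Neurog3* from 21 reads to 0 (at most 38.5%).

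Over both genotypes, *Neurod1* fell by 0.80 ± 0.22 (SE, adjusted p = 0.0126) and *Neurog3* fell by 1.13 ± 0.39 (adjusted p = 0.0425) with regorafenib, and the other 6 genes were not called, where 8.54% of all genes were called lower. *Gcg* passed the adjusted p (0.0488) but not the fold change of 1.5. With the line as a block, 6 of 8 were called, all but *Gcg* and *Pyy*, where 17.9% of all genes were called in either direction. Without the shallow library 5 were called, without line M1 7, without line M3 1, and without line M41, M40, F11 or M14 none. Shares of all genes called are not given for these fits. The colonoid and the combined comparison share their libraries.

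The difference between the genotypes in the response to regorafenib was tested as such. It was above 0 for all 8 genes, that is, the fitted change lay higher in tumoroids than in colonoids, and ran from 1.04 ± 1.14 for *Pyy* to 1.85 ± 1.09 for *Chgb* on the log2 scale. No gene was called, with adjusted p of 1 throughout, and 0% of all genes were called. Unadjusted p was under 0.05 for 4 of the 8, *Gcg* (0.012), *Neurod1* (0.0121), *Insl5* (0.0287) and *Tph1* (0.041), and edgeR also called none. Without line M1 these 4 genes were called, with adjusted p of 0.00474 (*Neurod1*) to 0.0372 (*Tph1*), against 0.297% of all genes. These 4 genes had 0 to 14 reads in all 12 tumoroid libraries together, so their fitted change there was near 0, and the difference restates the colonoid values. A difference in response between colonoids and tumoroids was thus not shown with all lines.

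Between the doses, the colonoid values of *Chga* were 40, 78 and 2 CP20M at R4 and 12, 19 and 0 at R8. Those of *Chgb* were 235, 46 and 4 at R4 and 18, 23 and 0 at R8. Over both genotypes the fitted difference of R8 against R4 ran from -0.59 ± 0.63 for *Chgb* to 0.22 ± 0.66 for *Pyy*, with none of 8 called, no unadjusted p under 0.05 and none called by edgeR, against 0.654% of all genes called. The M41 values at R4 rest on 0 to 10 reads.

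5-FU was included as a second drug. In colonoids *Neurog3* read 42, 97 and 0 CP20M with 5-FU in M41, M40 and M1, *Chga* 68, 276 and 7, *Chgb* 209, 391 and 14, *Tph1* 75, 110 and 5, and *Pyy* 181, 90 and 11. Each of these 5 genes, and *Neurod1* with 13, 22 and 2 CP20M, read lower than vehicle in all 3 lines. In M1 the 5-FU values rest on few reads, at most the 9 of *Chgb*. *Gcg* read 25, 6 and 2, and *Insl5* 25, 12 and 4, each with M1 above its vehicle value. *Sct* read 18, 0 and 7, and *Cck* 4, 0 and 0. In tumoroids the 10 genes summed to 56, 15 and 35 CP20M with 5-FU in F11, M3 and M14, with *Chga* at 22, 5 and 18.

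The fitted log2 changes with 5-FU in colonoids ran from -0.99 ± 0.93 for *Pyy* to -0.56 ± 0.32 for *Gcg*. None of 8 was called, where 0.0363% of all genes were called. Unadjusted p was under 0.05 for *Neurod1* (0.0284) and *Insl5* (0.044), and edgeR called none. In tumoroids the changes ran from -0.24 ± 0.64 for *Neurog3* to 0.05 ± 0.82 for *Chga*, again with none called, no unadjusted p under 0.05 and none called by edgeR, against 0.133% of all genes. Over both genotypes none was called either, against 1.48% of all genes, and the genotype difference in the 5-FU response gave none, where 0% of all genes were called. Neither had an unadjusted p under 0.05 among the 8, and edgeR called none in either. The regorafenib and 5-FU comparisons share their vehicle libraries.

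Regorafenib and 5-FU were compared directly as well. Over both genotypes the fitted difference ran from -0.87 ± 0.55 for *Chgb* to 0.36 ± 0.57 for *Pyy*, and none of the 8 was called, against 5.92% of all genes, with no unadjusted p under 0.05. EdgeR called none, with 5 genes at an unadjusted p under 0.05. With the line as a block, edgeR called 5 lower, *Chga*, *Chgb*, *Neurod1*, *Neurog3* and *Insl5* (lowest adjusted p = 0.00247, against 7.56% of all genes), while limma called none. Limma with the block and without the shallow library called *Chga* and *Chgb* lower (adjusted p = 0.0465 and 0.0118, against 5.92% of all genes). In the M40 colonoids *Chgb* read 46 CP20M at R4 and 23 at R8, and 391 with 5-FU. In M41 the 3 values were 235, 18 and 209, so the R4 library did not separate from 5-FU. Without line M1 *Chgb* was called (adjusted p = 0.0177).

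Other genes of the endocrine lineage were read from lists. Of 15 further transcription factors, 7 passed the filter. In colonoids with regorafenib 4 of them were called lower and none was called higher. *Foxa2* fell by 1.70, *Nkx2-2* fell by 1.41, *Rfx6* fell by 1.36 and *Isl1* fell by 1.07 on the log2 scale (adjusted p = 0.00262, 0.0116, 0.0281 and 0.000863). *Nkx2-2*, *Rfx6* and *Isl1* act in endocrine differentiation, and *Foxa2* is expressed more widely in the gut epithelium. The median of the 7 was -1.36, against -0.15 over all genes. *Nkx2-2* read 52, 93 and 2 CP20M in vehicle-treated M41, M40 and M1 and 0, 0 and 0 at R8. In tumoroids none of the 7 was called with regorafenib, and in vehicle *Isl1* was lower in tumoroids than in colonoids by a log2 difference of -1.02 (adjusted p = 0.0217).

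Of 18 further granule and amine genes, 9 passed the filter and did not move together. In colonoids *Ptprn2* and *Scg2*, both granule proteins, fell by 1.83 and 1.37 (adjusted p = 0.00628 and 0.0126), and the median was -0.40. None of the 9 was called higher in colonoids, *Cpe* included. *Cpe*, the carboxypeptidase that trims prohormones, went the other way, from 1151, 2674 and 444 CP20M in vehicle-treated colonoids to 3356, 10612 and 2997 at R4, and from 209, 124 and 306 in tumoroids to 2856, 958 and 3997. Over both genotypes *Cpe* rose by 2.58 ± 0.50 (adjusted p = 0.000924), and in tumoroids by 3.21 ± 0.71 (adjusted p = 0.00951). *Cpe* is not confined to endocrine cells. *Ddc*, which makes serotonin from the product of *Tph1*, was lower in vehicle-treated tumoroids than colonoids by a log2 difference of -2.88 (adjusted p = 0.0355) and was not called with regorafenib.

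Only 2 of 10 further gut peptides and 1 of 10 nutrient receptors passed the filter. The peptide list summed to 25 to 84 CP20M in every regorafenib-treated or vehicle-treated group, and neither peptide was called. *Ffar4*, a receptor for long-chain fatty acids that other epithelial cells also carry, read 765, 560 and 727 CP20M in vehicle-treated colonoids and 208, 168 and 321 at R8. It fell by 1.42 in colonoids and fell by 0.83 in tumoroids (adjusted p = 0.000567 and 0.0382).

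Secretory and Notch genes moved in both directions with regorafenib in colonoids, where 9 of 10 were tested, 2 rose and 3 fell. The Notch ligand *Jag1* rose by 1.76 (adjusted p = 2.76e-05) and *Sox4* rose by 1.23 (adjusted p = 0.0147). *Spdef*, a factor of goblet cells, fell by 2.16, the ligand *Dll4* fell by 1.48 and the Notch target *Hes1* fell by 0.80 (adjusted p = 0.00714, 0.0411 and 0.00493). *Atoh1*, which opens the secretory fate ahead of *Neurog3*, read 43, 118 and 6 CP20M in vehicle-treated colonoids, 79, 3 and 0 at R4, where 79 is 2 reads of the shallow library, and 0, 0 and 0 at R8, and was not called.

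**Figure D3:**
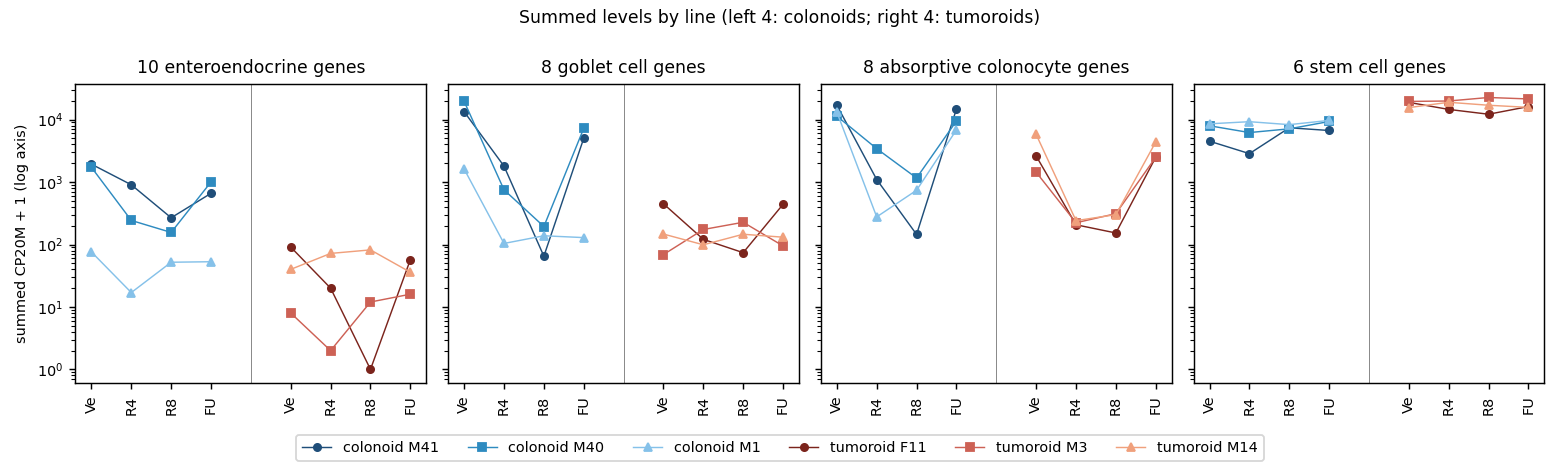
Summed CP20M + 1 on a log axis of the 10 enteroendocrine genes and of 3 marker lists, by treatment, with colonoids left and tumoroids right of the grey line and 1 symbol per library. Enteroendocrine and goblet sums were lower with regorafenib in all 3 colonoid lines, absorptive sums were lower in all 6 lines, and stem cell sums stayed between 2852 and 22623 CP20M in vehicle and regorafenib.

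Markers of the other epithelial cells moved beside the enteroendocrine genes. All 8 goblet cell genes fell with regorafenib in colonoids, led by *Clca1* at -5.89 and followed by *Tff3*, *Muc2*, *Fcgbp* and *Agr2*, with a median of -3.94. Their sum was 1616 to 19634 CP20M in vehicle and 64 to 193 at R8. Of 6 absorptive genes tested 3 fell, as *Car1* fell by 5.43, *Slc26a3* fell by 1.66 and *Ceacam20* fell by 0.96. Of 6 stem cell genes *Ascl2* fell by 2.29, and of 7 epithelial genes the intestinal factors *Cdx1* and *Cdx2* fell by 4.27 and fell by 2.12. The 4 tuft cell genes did not move together. In colonoids *Trpm5* rose by 0.92 and was the only one called. *Dclk1* was called higher in tumoroids and, together with *Trpm5*, over both genotypes. *Avil* read 574, 21 and 447 CP20M in vehicle-treated M41, M40 and M1 and 40, 54 and 24 at R4. *Cd68* rose by 1.60 over both genotypes, from 48 to 171 CP20M in vehicle to 211 to 2659 at R8. In colonoids at R4 it read 40, 61 and 69 CP20M in M41, M40 and M1, against 55, 48 and 83 in vehicle. It was the only 1 of 3 immune markers to pass the filter. The other immune markers, *Ptprc* and *Cd3e*, reached 7 and 2 CP20M at most. Of 6 neuronal markers 2 were tested and neither was called in colonoids, with sums of 12 to 107 CP20M in vehicle, 11 to 351 at R4 and 28 to 253 at R8. Of 5 fibroblast markers 2 were tested and neither was called, with sums of 7 to 46, 11 to 118 and 31 to 68 CP20M. No marker of these lists was 0 in every library. Their part in the enteroendocrine result was not tested.

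The genes whose levels most resembled *Chga* over the 24 libraries, besides *Neurog3* (Pearson r = 0.95), were *Adh1* (0.94), *Clca4a* (0.94), *Rimbp2* (0.93), *Reg4* (0.93) and *Nkx2-2* (0.93). After subtraction of the group means r was 0.91, 0.93, 0.93, 0.89 and 0.90, and 0.91 for *Neurog3*. Among the enteroendocrine genes r with *Chga* was 0.91 for *Chgb* and *Neurod1*, 0.89 for *Tph1*, 0.82 for *Gcg* and *Insl5*, and 0.69 for *Pyy*, the least alike. *Reg4* went from 1208, 1013 and 3 CP20M in vehicle-treated M41, M40 and M1 to 12, 23 and 0 at R8. *Rimbp2* went from 79, 144 and 5 to 0, 5 and 0. These libraries share lines and the level of line M1, and the values describe these 24 libraries only.

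*Neurod1* lies on chromosome 2 at 79452521 to 79456751 (minus strand, GRCm38), where it shares exon bases with *Cerkl* on its own strand and with the noncoding *Gm26755* on the other, which reached 40 and 19 CP20M. *Neurog3* lies on chromosome 10 at 62133090 to 62134763 (plus strand) and its last exon overlaps *Fam241b* on the other strand. Whether reads were counted by strand is not given in the sources used here, so their counts may include or lose reads of these neighbours. No such overlap was found for the other 8 genes.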

How the data were processed

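RNA sequencing libraries of 24 organoid cultures were used, each placed by genotype, treatment and line. The titles of the 3 tumoroid 5-FU libraries name colonoids, and these were placed by their library name and genotype label. Per the labels and methods, the authors trimmed reads with Trimmomatic 0.36, aligned them to GRCm38 with STAR 2.5.3a, counted them per gene with HTSeq 0.9.1 and deposited the counts scaled to 20000000 and rounded up, a signal called CP20M. The labels and the methods name different library kits, and strand-specific counting is not given in the sources used here. Whole reads were recovered from the step of each library (99.74% to 100.0% of values whole).

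Log2(CP20M + 20) was fitted with limma 3.58.1 in R 4.3.3 (8 group coefficients, eBayes with trend) over 16507 genes with at least 20 CP20M in at least 3 libraries. Genes were called at a Benjamini-Hochberg adjusted p under 0.05 with at least a 1.5-fold change, and the genotype differences in response by adjusted p alone. Alternatives were a filter of 200 CP20M in 2 libraries, no filter, a pseudocount of 5, a line block, leaving out lines or the shallow library, 18 libraries, median-of-ratios scaling, the study's stricter thresholds (adjusted p under 0.001 for regorafenib, and under 0.01 with a log2 change of 1 for genotype), vehicle libraries alone and edgeR 4.0.16 on recovered reads, with the line block in edgeR added after seeing the data. Lines recur across treatments because each is 1 mouse, and libraries of a line deviated together (mean correlation 0.47 over 36 pairs, from 0.02 to 0.83, against -0.23 between lines). No library was a copy of another in its group (chi-square per gene at least 13.9 over 24 pairs). Methods were tested on simulated data. All 10 enteroendocrine genes are named. Of the marker lists, genes are named where called, at most 5 per list and comparison, and list counts leave out the 10 genes. *Atoh1* was named after its values were seen. The genes and lists were chosen with earlier results of these data known.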

Additional observations from a re-analysis of the deposited data

Results flagged for a closer look

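*Cck* stood out in data outside the organoid comparisons. In the 19 fibroblast libraries, primary colon fibroblasts cultured with vehicle, regorafenib, the autophagy inhibitor autogramin-2 or both, its median was 4162 CP20M and its range 956 to 9467, whereas the organoid libraries reached 79 CP20M, which was 2 reads. The other 9 enteroendocrine genes did not exceed 16 CP20M in fibroblasts, and *Neurog3* and *Insl5* were 0 in all 19. The fibroblast and organoid tables were scaled separately, and the difference was not tested. Within fibroblasts *Cck* read 9467, 8182, 5884 and 1672 CP20M with vehicle in the lines M3, M3 (2), M1 (2) and M11, and 4090, 4198, 5174 and 956 with 4 µM regorafenib, lower in each of the 4 lines. With 10 µM regorafenib it read 2099, 4162 and 3046 in the first 3 lines, again lower than vehicle in each. The ranges of vehicle and 4 µM regorafenib overlapped, and these differences were not tested.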

How the results depend on the processing

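Of 173 recomputed counts of enteroendocrine genes called, 142 stayed within 1.5 times the value reported. These 142 include every 0 that stayed 0, and only regorafenib in colonoids and over both genotypes had reported counts above 0. Single genes that the text gives a change for had 1372 recomputed values. Of these, 128 lost their call and 56 gained one with the sign kept, and 8 turned sign. Values not given singly also turned: of the 8 genes, those below 0 numbered 7 at R8 against R4 and 6 in edgeR, without line M40, without line M41 or without the shallow library, and for the genotype difference in the 5-FU response 0, but 2 in edgeR and 1 without line M41. Regorafenib in colonoids gave 5 called genes, but 0 with the filter of 200 CP20M in 2 libraries, which tests 4 of the genes, 0 at the study's thresholds and 3 with a pseudocount of 5. Leaving out 1 line at a time gave 0 to 7. Regorafenib over both genotypes gave 2, but 0 with the stricter filter and at the study's thresholds, 1 without a filter, with a pseudocount of 5 or with median-of-ratios scaling, 4 in edgeR, and 5 without the shallow library. It gave 6 with the line as a replicate block, with that block and without the shallow library, and with that block in edgeR, and leaving out 1 line gave 0 to 7. Tumoroids against colonoids in vehicle gave 0, but 3 in edgeR, 5 without the shallow library and 0 to 8 with 1 line left out. No paired fit was possible for that comparison. Regorafenib against 5-FU gave 0, but 2 with the line as a replicate block and without the shallow library, 5 with the block in edgeR and 0 to 1 with 1 line left out. Regorafenib in tumoroids gave 1 with the block in edgeR, and the genotype difference in the regorafenib response 0 to 4 with 1 line left out. The other counts with the line as a replicate block did not change the call, apart from the 7 in colonoids given above. *Pyy* with regorafenib over both genotypes turned to 0.43 in edgeR, to 0.47 with the block in edgeR and to 0.03 without line M40 (-0.33 to 0.03 with 1 line left out). Without line F11 *Chga* and *Tph1* with regorafenib in tumoroids turned to 0.04 and 0.03 (lowest -0.58 and -0.17), without line M1 *Pyy* at R8 against R4 turned to -0.02 (highest 0.46), and *Chga* with 5-FU in tumoroids turned to -0.02 without line M3 and -0.05 without line M14 (highest 0.22). Shares of all genes called are not given beside these counts. The causes were not tested. The read depth limits the low genes, since most values rest on fewer than 10 reads.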
